A study of Mus musculus and Homo sapiens
Mus musculus with 12 samples.

Results

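Glis3 was followed across 11198 mouse brain nuclei in 7 libraries, as 1 of the 34496 genes in their count tables. The gene was chosen for its earlier seen pattern across these nuclei, and the classes it is compared over were selected by counts of 4 other genes, namely Prox1, Slc34a1, Lrp2 and Slc1a3. Levels of Glis3 by class or cluster are therefore a description and carry no test, while the effects of tissue storage and of the reverse transcription primer were tested. All libraries were made from the brains of wild-type C57BL/6J male mice aged 6–8 weeks, and the nuclei were fixed and reverse transcribed with random primers. The 4 groups were frozen tissue without a preindex (2 libraries), frozen tissue with preindexed primers (2 libraries), fresh tissue without a preindex (2 libraries) and fresh tissue with preindexed primers (1 library). No label says whether libraries came from separate animals, so p-values measure the spread between these libraries, which may be technical.

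GLIS3 is a zinc finger transcription factor of the Krüppel-like family, related to the GLI proteins that end the Hedgehog pathway, and it is found in the nucleus and at the primary cilium. Loss of the gene is known for cystic kidney disease, neonatal diabetes and congenital hypothyroidism, and in the kidney it is expressed along the tubule. Prox1, a homeobox factor, marks granule cells of the dentate gyrus and some interneurons and thalamic neurons, and Slc1a3 encodes the glutamate transporter GLAST of astrocytes. Slc34a1, a sodium-phosphate cotransporter, and Lrp2, the endocytic receptor megalin, mark the proximal tubule of the kidney.

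Each value is a count of unique fragment identifiers (UFIs), which count cDNA fragments once regardless of amplification. Total UFIs per library lay between 8605214 and 42439731, and median UFIs per nucleus between 9011.5 and 27543. The preindex is a barcode of 10 bases that the primer of one reverse transcription well adds, so nuclei that share it shared a well. Titles and treatment labels contradict each other on the primer in 4 of the 7 libraries. The titles were used, because the length of the barcodes went with them: 40 bases where the title says preindexed (3 libraries), and 30 bases elsewhere (4 libraries). Over the 21 pairs of libraries, 32 barcodes occurred in both members of a pair, which touched 64 nuclei.

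A set of 6 preindexes, each carried in both frozen preindexed libraries, shows how the nuclei with kidney genes were distributed, and all 10 bases of each are given in capitals. The first 3 lines belong to wells without kidney-gene nuclei, and the last 3 to wells where most nuclei had them.

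brain well 1: CAGTATTGTT

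brain well 2: CTTCTGGTGG

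brain well 3: ATGTTGTGGC

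kidney-gene well 1: AGATGGCTGG

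kidney-gene well 2: GGTTAGGTTG

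kidney-gene well 3: GTTGAGTGTG

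CAGTATTGTT was carried by 248 nuclei of frozen preindexed library 1 and 190 of library 2, none with the kidney genes, and Glis3 stood there at 1.03 and 1.02 UFIs per 10000 UFIs. AGATGGCTGG was carried by 30 and 19 nuclei, of which 30 and 18 had the kidney genes, and Glis3 stood at 23.3 and 19.8 UFIs per 10000. GTTGAGTGTG was carried by 17 and 20 nuclei, of which 13 and 16 had the kidney genes, with Glis3 at 25.2 and 25.7 UFIs per 10000.

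In the GENCODE annotation of GRCm38, Glis3 (ENSMUSG00000052942.13) covers chr19:28258851-28680077 on the minus strand, 421227 bases with 10 transcripts, and exons make up 2.10% of it. The files give gene symbols and no coordinates. Counting ran over whole genes, introns included, so nearly all of the window in which a Glis3 read can fall is intronic. Rfx3, a regulatory factor X gene of ciliated cells, ends 247684 bases away, and Slc1a1, a glutamate transporter gene on the other strand, lies 154971 bases away. The lincRNA D930032P07Rik overlaps Glis3 by 1854 bases on the opposite strand, and it had 43 UFIs in all nuclei against 29798 for Glis3. On a scale of UFIs per kb of gene per 1e6 UFIs, Glis3 had 0.391 over all nuclei, Rfx3 1.67 and Slc1a1 1.46.

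Over all nuclei, 26.9% (3012 nuclei) had a Glis3 UFI. The level was 0.888 and 0.978 UFIs per 10000 in the frozen libraries without a preindex, 3.04 and 2.54 in the frozen preindexed libraries, 1.28 and 1.03 in the fresh libraries without a preindex and 1.24 in the fresh preindexed library. The frozen preindexed libraries stood above the rest. Once the 484 nuclei of their kidney-gene wells were left out, they stood at 1.28 and 1.02, against 0.888 to 1.28 in the 5 other libraries, and library 1 remained the highest by a margin below the rounding.

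A nucleus was assigned to a class when it had at least 3 UFIs, and at least 2 per 10000 of its UFIs, on Slc34a1 and Lrp2 together, on Prox1 or on Slc1a3. This gave 438 kidney-gene nuclei, 622 Prox1 nuclei, 336 Slc1a3 nuclei, 66 nuclei that met several criteria and 9736 other nuclei. Of the 66, 37 met the Prox1 and Slc1a3 criteria, 23 the kidney and Prox1 criteria and 6 the kidney and Slc1a3 criteria, and their pooled Glis3 level was 11.4 UFIs per 10000. Glis3 was highest in kidney-gene nuclei, at 23.5 and 22.2 UFIs per 10000 in the 2 frozen preindexed libraries, the only libraries with at least 10 such nuclei. Fresh library 2 without a preindex and the fresh preindexed library each had 1 kidney-gene nucleus, with 12 and 0 Glis3 UFIs.

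In Prox1 nuclei the level was 6.49 ± 1.27 UFIs per 10000 (SD, n = 7). The lowest library was frozen library 1 without a preindex at 4.33, the median was 6.90 and the highest was the fresh preindexed library at 7.74. In Slc1a3 nuclei it was 3.18 ± 0.962 (SD, n = 7), with the lowest library at 1.84, the median at 3.04 and the highest at 4.42. Levels of both classes stood above those of other nuclei in every library. Other nuclei had 0.657 ± 0.176 (SD, n = 7), with 0.420, 0.622 and 0.914 as the lowest, median and highest library. Within each library Prox1 nuclei were above Slc1a3 nuclei, although the lowest Prox1 library was below the highest Slc1a3 library. The 2 kidney-gene values lay above all values of the other classes.

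**Figure D1:**
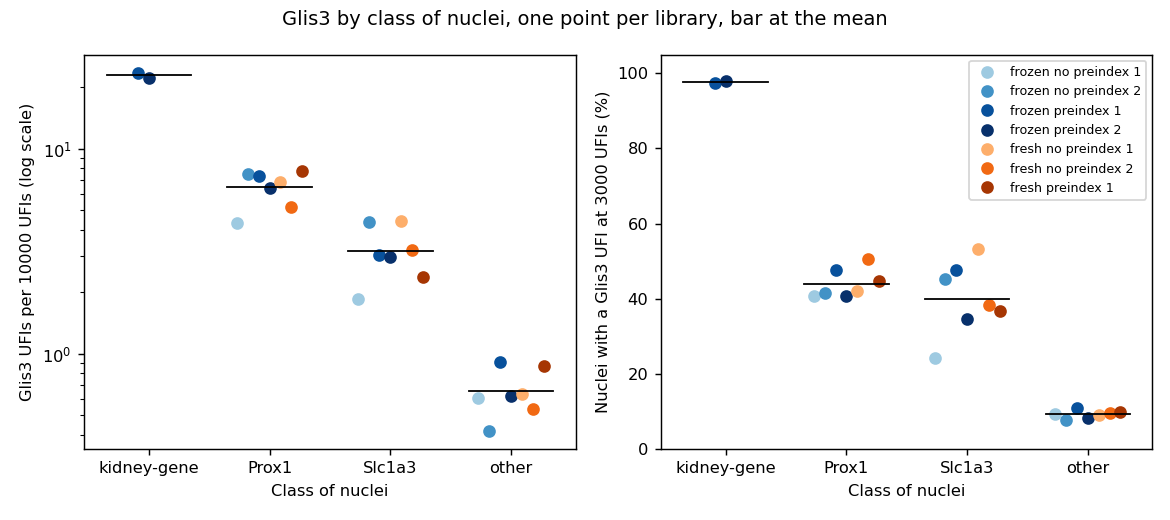
Glis3 level (left, UFIs per 10000 UFIs, log axis) and share of nuclei with a Glis3 UFI after thinning each nucleus to 3000 UFIs (right, percent) by class of nuclei, with 1 point per library and a bar at the mean. The 2 kidney-gene points sit at 22.2 and 23.5 UFIs per 10000, above the Prox1 points at 4.33 to 7.74 and the other nuclei at 0.420 to 0.914.

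Detection was compared after each nucleus had been thinned to 3000 UFIs, which left out 3 nuclei. At that depth 97.5% and 97.9% of kidney-gene nuclei had a Glis3 UFI, against 44.0% ± 3.88 of Prox1 nuclei, 39.9% ± 9.60 of Slc1a3 nuclei and 9.16% ± 1.10 of other nuclei (SD, n = 7 libraries each). Unthinned, the pooled shares were 98.6%, 53.7%, 66.1% and 20.2%, at median depths of 8730.5, 13895.5, 13174 and 12880.5 UFIs per nucleus, with exact binomial 95% intervals of 97.0 to 99.5%, 49.7 to 57.7%, 60.7 to 71.1% and 19.4 to 21.0%. The order of Prox1 and Slc1a3 nuclei therefore differed between the unthinned and thinned shares, and their thinned ranges overlapped (40.6 to 50.6% and 24.2 to 53.3%). The binomial intervals pool nuclei of all libraries and cover counting error only. By library the unthinned shares ran from 43.8 to 66.3% in Prox1 nuclei and from 42.4 to 76.7% in Slc1a3 nuclei. In other nuclei they ran from 15.7 to 33.4%. For comparison, a deep layer excitatory neuron-like cluster of 715 nuclei was taken, which has a low Glis3 level. In it 7.41% of nuclei had a Glis3 UFI unthinned (exact binomial 95% interval 5.60 to 9.58%), at a median depth of 12303, and 1.26% at 3000 UFIs. Whether these UFIs are background was not tested.

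The classes also differed in how Glis3 was spread over their nuclei. At 3000 UFIs the median kidney-gene nucleus had 6 Glis3 UFIs, with quartiles of 4 and 9 and a maximum of 23, and 89.0% had 3 or more. The median Prox1 nucleus had 0, with an upper quartile of 3 and a maximum of 19, and 29.1% had 3 or more. Slc1a3 nuclei also had a median of 0, with an upper quartile of 2, and 17.6% had 3 or more, against 2.69% of other nuclei. Nearly all kidney-gene nuclei thus carried the transcript, while Prox1 nuclei were a mixture of nuclei with many UFIs and nuclei with none.

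Detection of Glis3 also rose with the count of the class gene, itself counted after thinning and so not the count of the class criterion. Outside the kidney-gene wells and at 3000 UFIs, Glis3 was found in 10.4% of 9879 nuclei without a Prox1 UFI, 29.2% of 500 with 1, 42.1% of 214 with 2 and 61.5% of 109 with 3 to 5. By Slc1a3 UFIs the shares were 11.1% of 10113 nuclei with 0, 29.5% of 366 with 1, 31.0% of 84 with 2, 44.3% of 88 with 3 to 5 and 66.7% of 60 with 6 or more. These shares pool libraries and are given without a test.

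Of all Glis3 UFIs, kidney-gene nuclei held 30.8%, Prox1 nuclei 23.1%, Slc1a3 nuclei 6.0%, nuclei of several classes 4.15% and other nuclei 36.0%. Kidney-gene nuclei held 55.8% and 58.1% of the Glis3 UFIs of the 2 frozen preindexed libraries while making up 10.6% and 9.61% of their nuclei. Prox1 nuclei held between 11.5% and 45.6% of a library's Glis3, and Slc1a3 nuclei between 3.29% and 14.7%. The 4 shares were compared between frozen and fresh and between preindexed and plain primers in 8 two-sided exact permutation tests over the 7 libraries, and none passed after Benjamini-Hochberg adjustment. The 1 unadjusted p under 0.05 was that of the Slc1a3 share by primer, at 3.35% ± 0.0690 against 11.3% ± 2.67 (exact permutation p = 0.0286, the smallest that 35 arrangements allow, adjusted p = 0.229). Totals of the 2 frozen preindexed libraries include their kidney-gene nuclei, which lowers the shares of the other classes there. The fresh preindexed library, without kidney-gene wells, had a Slc1a3 share of 3.29%. Slc1a3 nuclei were also fewest there, at 1.58% of its nuclei. They made up 3.48% and 2.90% of the frozen preindexed libraries, and 4.71%, 3.88%, 3.0% and 4.23% of those without a preindex.

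Kidney-gene nuclei lay in wells of their own. In frozen preindexed library 1, the 244 kidney-gene nuclei all carried 1 of 28 preindexes that 271 nuclei carried in total, and 0 were found among the 2029 nuclei of the other 16 preindexes, which allows a share of up to 0.148%. In library 2, 191 of the 192 carried 1 of 26 preindexes that 213 nuclei carried in total, and 1 was among the 1785 nuclei of the other 16. The same 16 preindexes made up the wells with under 50% kidney-gene nuclei in both libraries, 24 of the kidney-gene preindexes were shared and none changed sides. Of the 81 preindexes of the fresh preindexed library, 0 were kidney-gene preindexes and 1 was among those 16. Since the frozen preindexed libraries share these preindexes, they may come from the same set of wells, which was not tested. All tests of storage and primer count them as separate libraries, so their spread may understate that between separate preparations.

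The level of Glis3 separated these wells without overlap. Among wells with at least 10 nuclei, Glis3 lay between 20.3 and 25.2 UFIs per 10000 in the 12 kidney-gene wells of library 1 and between 18.3 and 25.7 in the 8 of library 2. In the 16 other wells it lay between 0.360 and 2.01 in library 1 and between 0.327 and 1.83 in library 2. The 27 and 22 nuclei of kidney-gene wells that missed the kidney-gene class also had high Glis3, at 20.4 and 14.8 UFIs per 10000. How nuclei with kidney genes came into libraries labelled as brain was not tested.

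**Figure D2:**
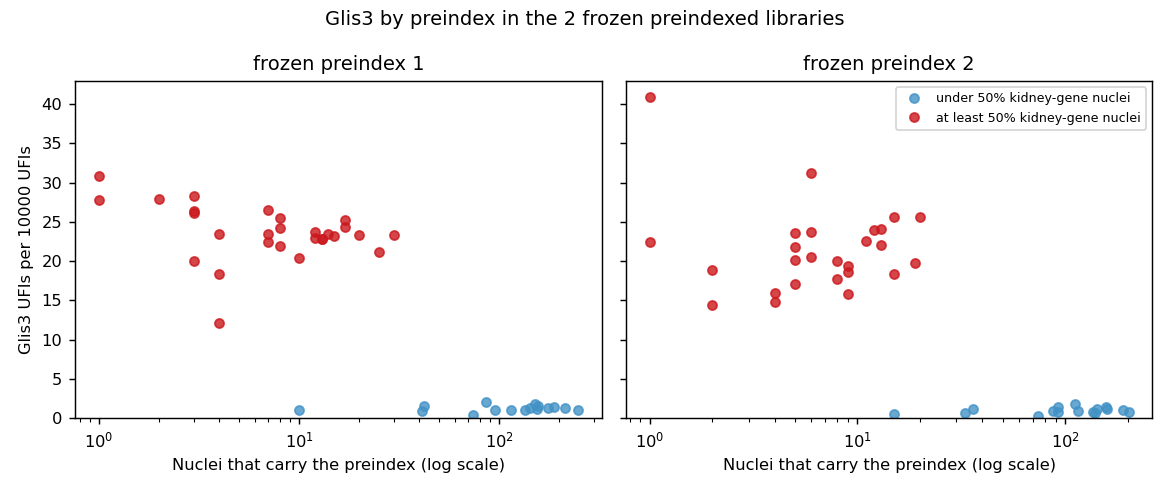
Glis3 level (UFIs per 10000 UFIs) against the number of nuclei that carry a preindex (log axis) in the 2 frozen preindexed libraries, with 1 point per preindex, red where at least 50% of its nuclei are kidney-gene nuclei. The other wells lie at or below 2.01, and kidney-gene wells with at least 10 nuclei lie at or above 18.3.

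Few kidney transcripts were found beyond those wells. Outside the kidney-gene wells Slc34a1 stood at 0.0186 and 0.0150 UFIs per 10000 in the frozen preindexed libraries, and at 0.00125 to 0.0186 in the 5 libraries without such wells. Kidney-gene wells had 0.872 and 0.901 Glis3 UFIs per Slc34a1 UFI. At that ratio the Slc34a1 found elsewhere corresponds to 0.0162 and 0.0135 Glis3 UFIs per 10000, beside measured Glis3 levels of 1.28 and 1.02. Whether kidney transcripts outside those wells keep that ratio was not tested.

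The kidney-gene nuclei carried the markers of tubule cells and almost none of neurons. All 10 proximal tubule genes and all 9 genes of the loop and distal tubule were at least 2-fold above other nuclei. The summed level of 7 neuron genes was 1.35 and 2.18 UFIs per 10000, against 122.6 to 140.8 in other nuclei. The proximal list includes the 2 genes that define the class, so its rise is in part a consequence of the choice. Slc12a1, the cotransporter of the loop of Henle, stood at 11.1 and 14.1 UFIs per 10000, and Slc12a3, that of the distal tubule, at 11.4 and 12.1. Markers of podocytes and endothelium were also higher there. On the podocyte list 4 of 5 genes were at least 2-fold above other nuclei, with a summed level of 2.89 and 4.29 UFIs per 10000 against 0.588 to 0.754. Podxl, on that list, stood at 1.70 and 2.33, and Nphs1, which encodes nephrin, at 0.184 and 0.345. Of 8 endothelial genes 7 were at least 2-fold above other nuclei, with a summed level of 1.89 and 2.05 against 0.176 to 0.535. Their part in the Glis3 level was not tested.

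Glis3 was high in kidney-gene nuclei both with and without distal tubule genes. With at least 2 UFIs of Slc34a1 and fewer than 2 on the distal list, 164 nuclei had 24.0 Glis3 UFIs per 10000. The 223 nuclei with at least 2 UFIs on each had 23.3. With fewer than 2 UFIs of Slc34a1, the 24 nuclei with distal genes had 18.9 and the 27 without had 12.8. All met the class criterion on Slc34a1 and Lrp2 together, so those low in Slc34a1 carried Lrp2. Distal nuclei free of proximal transcripts are thus not in this split. In a finer clustering (Leiden resolution 1.2), a kidney tubule-like cluster led by Slc34a1 and Slc5a12 had Glis3 at 23.1 and 23.6 in the 2 libraries. The one led by Slc12a1 and Slc12a3 had it at 20.8 and 23.9. Ranges of the 2 clusters overlapped. The cluster led by Slc12a1 also carried Slc34a1 at 16.9 and Lrp2 at 17.8 UFIs per 10000, against 36.8 and 25.7 in the other. The source of these proximal transcripts was not tested, so the Glis3 level of this cluster cannot be assigned to distal tubule nuclei alone.

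Among Prox1 nuclei, Glis3 was higher where other dentate granule markers were present, though not evenly. The 7 genes of the dentate granule list, Prox1 among them, were all at least 2-fold above other nuclei in the Prox1 class, with a summed level of 10.8 to 14.7 UFIs per 10000 against 1.55 to 2.01. The class was not purely dentate. Of 6 markers of Adarb2 interneurons, 4 were also at least 2-fold above other nuclei, with a summed level of 31.1 to 44.4 against 6.91 to 9.39. The 481 Prox1 nuclei with at least 2 UFIs on the rest of the dentate granule list had Glis3 at 8.12 UFIs per 10000, and 65.9% of them had a Glis3 UFI. The 141 without had it at 0.336 and 12.1%. Of the latter, 107 had genes of the interneuron list, with Glis3 at 0.194 UFIs per 10000 and found in 10.3%. Genes of the interneuron list also occurred in 411 of the nuclei with dentate genes, where Glis3 stood at 8.78 and was found in 72.7%. The 70 nuclei with genes of the dentate list only had it at 3.37 and 25.7%, below those with both lists. That list is not particular to granule cells. Dock10, on it, stood at 11.8 UFIs per 10000 in an oligodendrocyte-like cluster and at 6.90 in the dentate granule-like cluster (Leiden resolution 0.4). The oligodendrocyte-like cluster held 48 of the Prox1 nuclei, and the cell type of the 70 was not tested. The interneuron list holds Adarb2 beside the GABA genes Gad1, Gad2 and Slc32a1, and 286 Prox1 nuclei reached 2 UFIs on the list only through Adarb2, with Glis3 at 8.85. The 232 Prox1 nuclei with at least 2 UFIs on the GABA genes had 5.08. Among other nuclei, 3928 also had at least 2 UFIs on the dentate list without Prox1, with Glis3 at 0.825 UFIs per 10000. The 5808 other nuclei without had 0.532.

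Clusters computed from 2000 variable genes without Glis3 ranked the nuclei more sharply than the single genes. Of 30 clusters (Leiden resolution 0.4), the kidney tubule-like cluster of 471 nuclei came first, at 23.8 and 21.7 Glis3 UFIs per 10000 in its 2 libraries. The dentate granule-like cluster of 413 nuclei came next, at 13.6 ± 2.17 (SD, n = 7), with 10.8, 14.5 and 17.0 as the lowest, median and highest library. In this cluster 97.8% of nuclei had a Glis3 UFI, and 91.0% at 3000 UFIs. Its leading genes by fold were C1ql2, Dsp, Lct, Stra6 and Glis3 itself.

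Below the first and second clusters, neighbours in the order overlapped between libraries. An unnamed cluster led by Flt1, which held glial and vascular nuclei, had 2.30 ± 0.853 UFIs per 10000. A cortical or hippocampal excitatory neuron-like cluster led by Igfn1 and Nectin3 had 1.78 ± 0.646, and an unnamed cluster led by Ndst4 and Abi3bp had 1.90 ± 0.643 (SD, n = 7 each). The oligodendrocyte-like, subcortical excitatory neuron-like and OPC-like clusters had pooled levels of 1.04, 0.966 and 0.860. At the low end, the deep layer excitatory neuron-like cluster had 0.116 and the D2 striatal neuron-like cluster 0.137. The kidney tubule-like cluster held 33.3% of all Glis3 UFIs, the dentate granule-like cluster 28.4% and the next 3 clusters 4.63%, 9.77% and 8.97%.

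**Figure D3:**
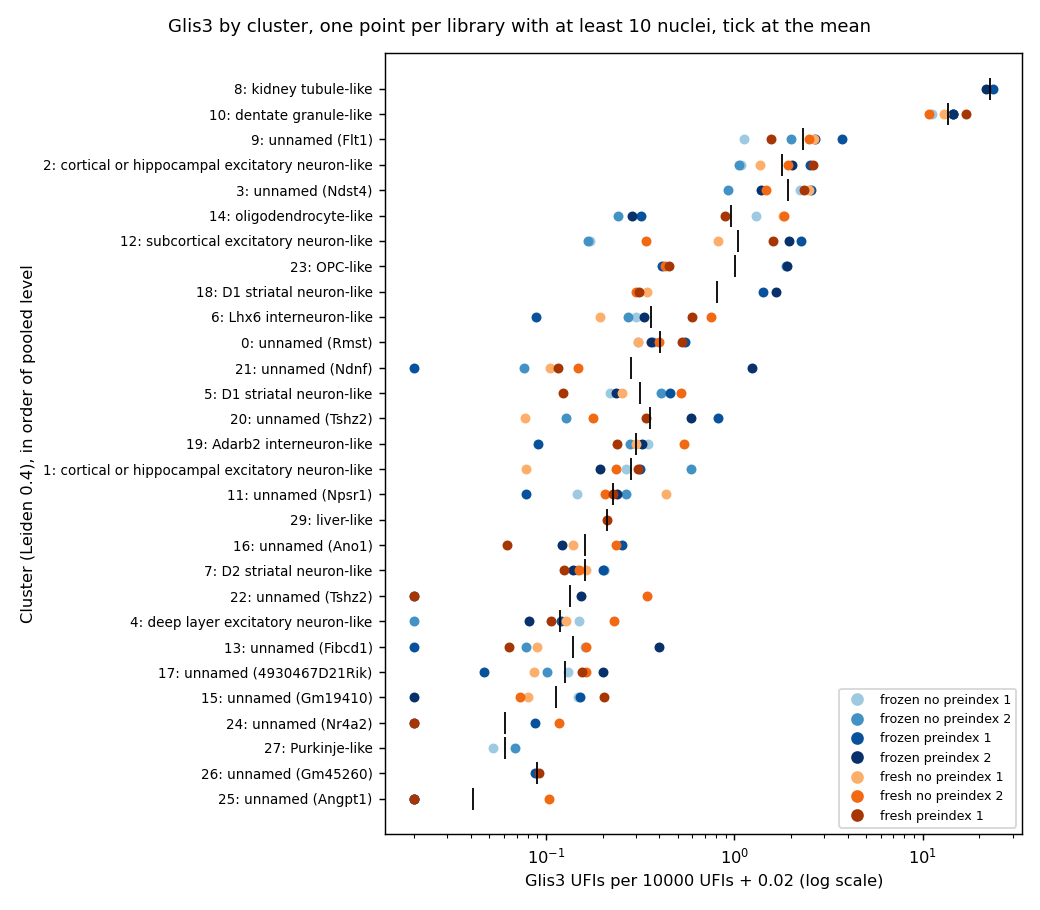
Glis3 level (UFIs per 10000 UFIs plus 0.02, log axis) in clusters with at least 10 nuclei in a library, in order of pooled level, with 1 point per library and a tick at the mean. The kidney tubule-like and dentate granule-like clusters stand apart, at 21.7 to 23.8 and 10.8 to 17.0, and the next cluster reaches at most 3.72.

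The cluster and the Prox1 criterion overlapped only in part. Of the 622 Prox1 nuclei, 273 lay in the dentate granule-like cluster, with Glis3 at 13.5 ± 2.29 UFIs per 10000 (SD, n = 7), and 349 lay outside it, at 1.27 ± 0.373. Of the 349, 109 were in the subcortical excitatory neuron-like cluster and 75 in the Adarb2 interneuron-like cluster. The cluster also took in 113 nuclei that missed every class criterion, with Glis3 at 14.1 ± 2.93, within 1 SD of its Prox1 nuclei. These 113 made up 1.16% of other nuclei and held 16.4% of their Glis3, from 6.23% to 23.8% by library. They made up 14% to 42.3% of the cluster by library. The highest shares were 42.3% in frozen library 1 without a preindex and 40% in the fresh preindexed library. The median depths of the cluster were lowest there, at 8447 and 7237 UFIs. The class criterion of 3 UFIs depends on depth, so the make-up of other nuclei differs between libraries. In libraries taken without kidney-gene wells, the dentate granule-like cluster held 43.5% ± 6.55 of all Glis3 UFIs, from 37.2% to 52.9%.

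In Slc1a3 nuclei the pooled Glis3 level was higher where other astrocyte genes were present, but not in every library. All 10 genes of the astrocyte list, Slc1a3 among them, were at least 2-fold above other nuclei, and the summed level was 45.6 to 104.1 UFIs per 10000 against 7.78 to 8.91. The class was not purely astrocytic, since 7 of 8 oligodendrocyte genes and 7 of 8 endothelial genes were also at least 2-fold above other nuclei. The 268 nuclei with at least 2 UFIs on the rest of the astrocyte list had Glis3 at 3.43 UFIs per 10000, found in 72.0%. The 68 without had 2.16, found in 42.6%. The order was the opposite in frozen library 1 without a preindex (1.80 with and 2.08 without) and in frozen preindexed library 2 (2.33 with and 4.99 without). Of the 68, 44 with genes of oligodendrocyte precursors (OPC) had 1.53 and the 24 with neither list had 3.39, close to the nuclei with astrocyte genes. An astrocyte-like cluster of 201 nuclei at resolution 1.2, for which 10 of 10 markers were 2-fold above the rest, had 4.36 ± 0.960 (SD, n = 7), from 3.33 to 5.76. It stood below the dentate granule-like cluster in all 7 libraries. A smaller astrocyte-like cluster of 30 nuclei, with 9 of 10 markers 2-fold above the rest, had a lower pooled level of 2.70, and 2.35 in the 1 library that held at least 10 of them.

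Whether Glis3 within a class of nuclei changed with tissue storage was tested on counts summed per library (edgeR quasi-likelihood test, Benjamini-Hochberg over all genes tested). No class passed. In Prox1 nuclei the log2 fold change of frozen against fresh tissue was -0.05 ± 0.16 (SE, edgeR adjusted p = 0.973), in a comparison where 1.37% of 11061 genes passed. In Slc1a3 nuclei it was 0.01 ± 0.28 (edgeR adjusted p = 0.999), with 0.0111% of 8980 genes passing. In other nuclei it was -0.16 ± 0.15 (edgeR adjusted p = 0.726), with 0.325% of 18166 genes passing. Kidney-gene nuclei could not be compared, since only the 2 frozen preindexed libraries held enough of them. An effect of storage or primer on Glis3 within kidney-gene nuclei thus cannot be estimated from these libraries.

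By primer, the level of Glis3 rose in other nuclei. Preindexed libraries had 0.914, 0.622 and 0.868 UFIs per 10000 in other nuclei, and libraries without a preindex 0.605, 0.420, 0.636 and 0.537. One preindexed library lay inside the range of the libraries without a preindex. The share of other nuclei with a Glis3 UFI at 3000 UFIs also overlapped. It was 10.9%, 8.18% and 9.79% with preindexed primers against 9.38%, 7.55%, 8.89% and 9.43% without. After edgeR's normalization across all genes the log2 fold change was 0.73 ± 0.15 (SE, edgeR adjusted p = 0.00827), in a comparison where 19.2% of genes passed. Scaled by the same normalization, the levels were 0.971, 0.661 and 0.914 against 0.600, 0.402, 0.605 and 0.502 and did not overlap. Omitting any 1 library gave values from 0.59 to 0.87, at edgeR adjusted p from 0.00569 to 0.0317. Without nuclei of the kidney tubule-like and dentate granule-like clusters, a set chosen after the data were seen, the values were 0.726, 0.563 and 0.687 against 0.467, 0.338, 0.497 and 0.467. The groups then did not overlap in level, and the log2 fold change was 0.76 ± 0.12 (edgeR adjusted p = 0.00215). Their shares of nuclei with a Glis3 UFI at 3000 UFIs still overlapped, at 9.60%, 7.63% and 8.27% against 8.09%, 6.91%, 8.07% and 8.72%.

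The share of 1 of the main Glis3 clusters of other nuclei did not overlap between primers, and that of another did. The cortical or hippocampal excitatory neuron-like cluster led by Igfn1, which held 25.9% of the Glis3 of other nuclei, made up 8.58%, 8.24% and 8.77% of the nuclei outside kidney-gene wells with preindexed primers and 3.86%, 6.0%, 7.70% and 6.69% without. Its Glis3 level was 2.51, 2.00 and 2.59 UFIs per 10000 with preindexed primers and 1.07, 1.04, 1.35 and 1.90 without. In the subcortical excitatory neuron-like cluster the level was 2.23, 1.94 and 1.59 against 0.151, 0.147, 0.797 and 0.320. In both clusters the level in every preindexed library was above that in every library without a preindex. These cluster shares and levels, chosen after they were seen, carry no test. Detection at 3000 UFIs overlapped in both. It was 33.9%, 27.2% and 32.7% against 14.8%, 20.8%, 22.1% and 34.5% in the cluster led by Igfn1. In the subcortical cluster it was 11.1%, 12.8% and 5.15% against 5%, 10%, 6.25% and 9.23%. Unthinned, 9, 9 and 10 nuclei of its preindexed libraries had a Glis3 UFI. In the unnamed cluster led by Ndst4, with 24.5% of the Glis3 of other nuclei, the groups overlapped (2.52, 1.37 and 2.34 against 2.22, 0.905, 2.47 and 1.45). Its share of nuclei also overlapped, at 7.79%, 8.29% and 6.97% against 9.43%, 7.88%, 6.20% and 5.08%. The part of cell composition in the result was not tested.

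In Prox1 nuclei the primer gave a log2 fold change of 0.33 ± 0.16 (edgeR adjusted p = 0.323), where 3.97% of genes passed. In the dentate granule-like cluster it was 0.40 ± 0.10 (edgeR adjusted p = 0.0274), with levels of 14.5, 14.5 and 17.0 UFIs per 10000 against 11.2, 14.5, 13.0 and 10.8. That call was lost without the fresh preindexed library (0.24, edgeR adjusted p = 0.397), without fresh library 2 lacking a preindex (edgeR adjusted p = 0.104) and without frozen library 1 of either primer (edgeR adjusted p = 0.0572 and 0.0556). In Slc1a3 nuclei the log2 fold change was -0.24 ± 0.28 (edgeR adjusted p = 0.825), where 0.122% of genes passed. The difference between Prox1 and Slc1a3 nuclei in log2 level was larger by 0.52 with preindexed primers, which a two-sided exact permutation test over the 7 libraries did not separate from 0 (p = 0.0857, adjusted p = 0.171). For storage that difference was 0.07 (exact permutation p = 0.771).

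**Figure D4:**
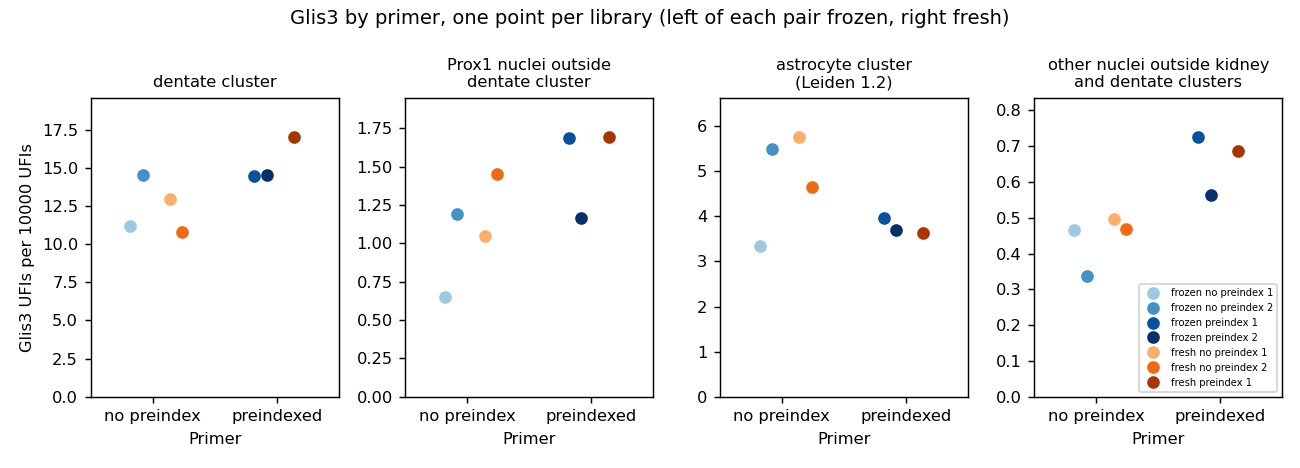
Glis3 level (UFIs per 10000 UFIs, axes from 0) by primer in the dentate granule-like cluster, Prox1 nuclei outside it, the astrocyte-like cluster and other nuclei outside the kidney tubule-like and dentate granule-like clusters, with 1 point per library. In the last panel the preindexed libraries (0.563 to 0.726) lie above those without a preindex (0.338 to 0.497), and in the other panels the groups overlap.

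Over all nuclei together, Glis3 was higher with preindexed primers by a log2 fold change of 1.09 ± 0.27 (edgeR adjusted p = 0.0348), where 15.8% of 19299 genes passed. For storage it was 0.27 ± 0.27 (edgeR adjusted p = 0.693), where 0.207% passed. Without the 484 nuclei of kidney-gene wells the primer value fell to 0.36 ± 0.10 (edgeR adjusted p = 0.0318) and the storage value was -0.19 ± 0.10 (edgeR adjusted p = 0.517). With all nuclei the primer call was lost in 5 of 7 fits that left out a library, at edgeR adjusted p of 0.121 and 0.136 without either frozen library lacking a preindex, 0.0868 and 0.0975 without either frozen preindexed library and 0.0622 without fresh library 2 lacking a preindex.

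The genes of the GLI and GLIS list divided between kidney-gene and Slc1a3 nuclei, 5 of 8 being highest in the former and 3 in the latter. Nuclei of several classes, which mix the criteria, were left out of these orders; there Glis2 had 0.556 and Pkhd1, a cystic kidney gene, 13.9 UFIs per 10000. Glis1, the closest relative on the list, stood at 10.5 UFIs per 10000 in kidney-gene nuclei and at 0.474, 0.427 and 0.324 in Prox1, Slc1a3 and other nuclei. Glis2, a gene linked to nephronophthisis, stood at 1.37 in kidney-gene nuclei and at or below 0.135 in Prox1, Slc1a3 and other nuclei. Sufu, which holds GLI proteins in the cytoplasm, and the Hippo pathway coactivators Wwtr1 and Yap1 had 3.31, 2.69 and 2.28 in kidney-gene nuclei. The Hedgehog effectors Gli2 and Gli3 had 3.36 and 3.56 in Slc1a3 nuclei and 0.0342 and 0.0441 in Prox1 nuclei. Gli1 had 48 UFIs in all nuclei. Glis1 was thus low in Prox1 nuclei, where Glis3 was high.

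Of 14 genes of cystic kidney disease and cilia, 10 were highest in kidney-gene nuclei and 4 in other nuclei. The share of all genes that were highest in kidney-gene nuclei was not counted. Neither this count nor that of the GLI and GLIS list can therefore be set against a background. Kidney-gene means rest on 2 libraries, and those of Prox1, Slc1a3 and other nuclei on 7. Pkhd1, which encodes fibrocystin, stood at 29.5 UFIs per 10000 in kidney-gene nuclei and at or below 0.104 in Prox1, Slc1a3 and other nuclei. Bicc1, an RNA-binding protein gene, stood at 10.9 against 0.564 to 0.636, and Pkd2, which encodes polycystin-2, at 3.36 against 0.498 to 0.755. Pkd1, which encodes polycystin-1, was lowest there, at 0.949, and stood at 2.03 in other nuclei. The transport gene Kif3a was also lowest there, at 0.206 against 0.730 in other nuclei.

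Rfx3, the neighbour, had another order of classes than Glis3. It was highest in Prox1 nuclei, at 10.3 UFIs per 10000, then stood at 4.91 in Slc1a3 and 3.68 in other nuclei, and was lowest in kidney-gene nuclei, at 2.19. Its pooled level in the dentate granule-like cluster was 20.4. Slc1a1 was highest in kidney-gene nuclei, at 4.36, against 1.38, 0.810 and 1.05 in Prox1, Slc1a3 and other nuclei. Rfx3 and Slc1a1 thus each shared 1 of the sites of high Glis3. The neighbours Pum3 and 4430402I18Rik were also higher in kidney-gene nuclei than in Prox1, Slc1a3 and other nuclei. Pum3 stood at 0.267 against 0.142 to 0.176, and 4430402I18Rik at 0.351 against 0.0896 to 0.193.

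**Figure D5:**
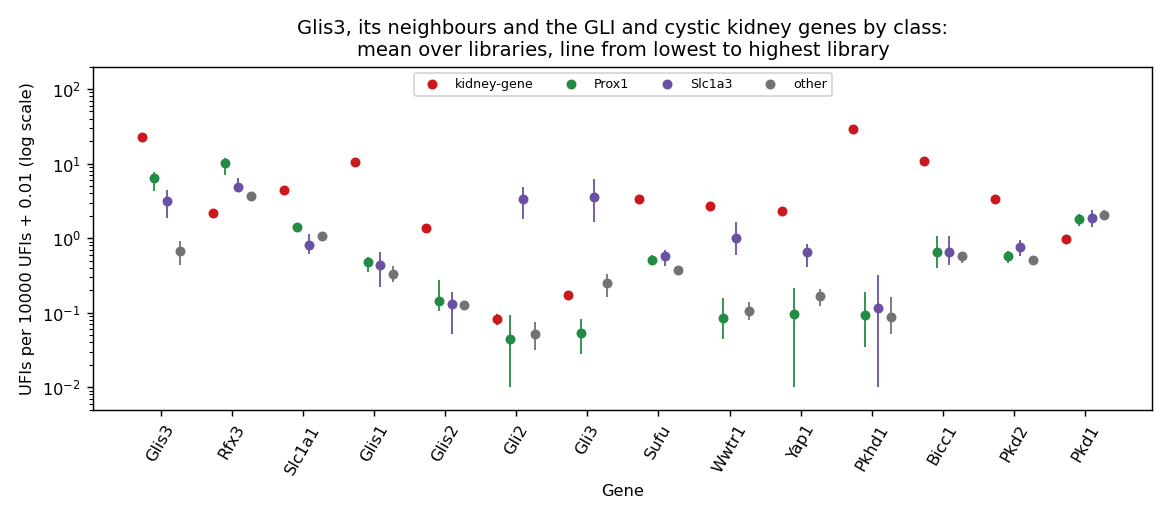
Levels (UFIs per 10000 UFIs plus 0.01, log axis, not corrected for gene length, so classes compare within a gene only) of Glis3, 2 neighbours and GLI and cystic kidney genes by class, as the mean over libraries with a line from the lowest to the highest library. Glis1, Pkhd1 and Bicc1 are highest in kidney-gene nuclei, Gli2 and Gli3 in Slc1a3 nuclei, and Rfx3 is highest in Prox1 nuclei and lowest in kidney-gene nuclei.

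Few of these genes passed a test of storage or primer. In Prox1 and Slc1a3 nuclei none of the 7 tested GLI and GLIS genes, 12 tested cystic kidney genes or 4 neighbours passed in edgeR or DESeq2 for either factor. At an unadjusted edgeR p under 0.05, Prox1 nuclei had Gli2 and Yap1 by storage and Yap1, Ift140, Pkhd1 and Rfx3 by primer, and Slc1a3 nuclei had 0 by either. In other nuclei, where 19.2% of all genes passed by primer, Gli3 rose with preindexed primers by a log2 fold change of 0.52 (edgeR adjusted p = 0.0114), as 1 of 7 GLI and GLIS genes. Among the cystic kidney genes, Bicc1 rose by 0.28 (edgeR adjusted p = 0.0177) and Pkd1 fell by 0.15 (0.0354). Of 4 neighbours, Rfx3 rose by 0.44 (edgeR adjusted p = 0.000927) and Slc1a1 by 0.16 (0.0396). By primer the median log2 fold change was -0.10 over the GLI and GLIS list, 0.06 over the cystic kidney list and 0.04 over the neighbours. Over all genes tested it was -0.03. By storage, where 0.325% of all genes passed, no gene of these lists passed in edgeR in other nuclei. DESeq2 called 1 GLI and GLIS gene there. Gli3 was higher in frozen tissue by a log2 fold change of 0.60 (edgeR adjusted p = 0.0732).

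Over 27 clusters with at least 50 nuclei, the genes whose level followed Glis3 most closely among 8142 included B4galt1 (Pearson r = 0.82), Fbxw11 (0.78), Pabpc1 (0.77), Elmsan1 (0.77), Ncor1 (0.76), Derl1 (0.76), Fars2 (0.76), Rnf10 (0.75) and Cecr2 (0.74). These are correlations of log2 levels over pooled clusters that share libraries, and they rest in part on the kidney tubule-like cluster. Without it, 3 of the first 10 were still among the first 10 over 26 clusters (B4galt1, Derl1 and Pabpc1), and Rfx3 then had a rank of 3 at r = 0.73.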

How the data were processed

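The authors deposited, for each brain library, a table of UFI counts per gene and nucleus, unnormalized. Per the labels and the study's methods, reads were trimmed with cutadapt, barcodes were chosen by a read cutoff with UMI-tools, and uniquely mapped STAR alignments were assigned to whole genes by featureCounts and counted by UMI-tools. Versions are not given in the sources used here, and the labels name GRCm38, mm10 and GRCh38 without saying which served these files. No further filter was put on nuclei, no doublets were removed, and 0 value columns were left unused. Intervals and floors cover counting error only.

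Nuclei were thinned without replacement for detection. Clustering used scanpy 1.11.5 (counts scaled to 10000, 2000 variable genes without Glis3, 40 components, 10 neighbours, Leiden 0.4). A cluster was named only from listed markers. Counts were summed per class and library, and tested with edgeR 4.0.16 (filterByExpr, TMM, quasi-likelihood test, terms for storage and primer, adjusted p under 0.05) in R 4.3.3, leaving out libraries with under 10 nuclei of a class. The fits were tested on simulated data. Named genes were Glis3, the class genes, its neighbours, the GLI and cystic kidney lists and the 10 genes most like it over clusters. Some named genes are not reported here. The gene, classes and lists were chosen with earlier results of these data known. Alternatives included DESeq2 1.42.0, other class criteria, other filters and scaling, and each library left out.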

Additional observations from a re-analysis of the deposited data

Results flagged for a closer look

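Of 18 groups of 4 libraries examined for a library far from the rest (a gap too wide for its range by Dixon's 95% limit), 3 had one, and chance alone marks about 1 in 20 such groups. In Prox1 nuclei at 3000 UFIs, 47.7% had a Glis3 UFI in frozen preindexed library 1, against 40.6%, 41.5% and 40.6% in the other frozen libraries. Among libraries without a preindex, fresh library 2 had 50.6% in the same measure, against 40.6%, 41.5% and 42.0%. In the dentate granule-like cluster, Glis3 stood at 11.2 UFIs per 10000 in frozen library 1 without a preindex, against 14.5 in each of the other frozen libraries.

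The effect of the primer on Glis3 over all nuclei differed between frozen and fresh tissue, with a storage by primer interaction of 1.37 ± 0.16 on the log2 scale (SE, edgeR). In this term the fresh preindexed group is 1 library, so only effect sizes are given. Without the nuclei of kidney-gene wells, which occurred only in the 2 frozen preindexed libraries, the interaction was 0.16 ± 0.17. Within classes it was -0.19 in Prox1 nuclei, 0.60 in Slc1a3 nuclei and 0.01 in other nuclei.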

How the results depend on the processing

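The rise of Glis3 with preindexed primers in other nuclei passed in edgeR or DESeq2 under all 11 alternatives that kept the 7 libraries (log2 fold change 0.42 to 0.83) and with each library left out. In Prox1 nuclei the primer passed when 1 UFI of Prox1 sufficed (1.37, adjusted p = 0.00408), when 3 UFIs sufficed at any depth (0.77, adjusted p = 0.0307) and in the dentate granule-like cluster (0.40, adjusted p = 0.0274). The storage value in Prox1 nuclei turned to 0.028, 0.062 and 0.015 with 1 UFI, with 3 UFIs at any depth and with nuclei of several classes counted in each. In Slc1a3 nuclei the storage value turned to -0.025 without a filter, -0.062 with the replicate block, -0.58 with 5 UFIs and 4 per 10000, -0.011 with 3 UFIs at any depth, -0.067 with several classes, -0.020 with thinned nuclei and -0.066 in the astrocyte-like cluster. Its primer value turned to 0.76 with 1 UFI, 0.14 with 5 UFIs, 0.12 with 3 UFIs at any depth, 0.065 with several classes and 0.018 with thinned nuclei. None of these Slc1a3 values passed. The storage value of other nuclei turned to 0.029 with 1 UFI, that of all nuclei to -0.19 without kidney-gene wells, and that of the difference between Prox1 and Slc1a3 nuclei to -0.17 with 1 UFI. The causes were not tested.

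With each library left out, values lay between -0.29 and 0.079 (storage in Prox1 nuclei), 0.19 and 0.56 (primer in Prox1 nuclei), -0.13 and 0.16 (storage in the dentate cluster), 0.24 and 0.53 (primer in the dentate cluster), -0.25 and 0.31 (storage in Slc1a3 nuclei), -0.21 and 0.11 (storage in the astrocyte-like cluster), -0.53 and 0.042 (primer in Slc1a3 nuclei), -0.25 and 0.48 (storage over all nuclei), 0.90 and 1.62 (primer over all nuclei), -0.11 and 0.42 (storage, difference of the classes) and -3.22 and 1.31 percentage points (storage, Slc1a3 share). Mean detection at 2000 and 5000 UFIs was 95.0% and 99.1% in kidney-gene nuclei, 40.7% and 48.3% in Prox1 nuclei, 36.5% and 51.9% in Slc1a3 nuclei and 7.54% and 11.5% in other nuclei. The 10 genes most like Glis3 shared 0 with the first 10 by Spearman's rho and 3 with those at resolution 1.2. Libraries with the same replicate number did not deviate together (correlations of -0.06, 0.07 and -0.02 over 8335 genes). The replicate block gave a primer value of 0.62 in other nuclei (adjusted p = 0.00197) and 0.33 in Prox1 nuclei. Genes passing by primer numbered 3480 in other nuclei (1832 to 4405 over the alternatives), 439 in Prox1 nuclei (85 to 822), 11 in Slc1a3 nuclei (0 to 395) and 3041 over all nuclei (1009 to 5668). By storage they numbered 59 (13 to 885), 152 (40 to 401), 1 (0 to 74) and 40 (4 to 840). Slc1a3 nuclei numbered 30 to 80 in a library.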
